A study of Mus musculus with 28 samples.

Results

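Pax3 and Pax7 are the 2 genes described here, of 22552 genes listed in each of 4 expression tables. The cells were satellite cells of the mouse, which are resident stem cells of skeletal muscle. They were taken by name as the paired-box genes of the muscle lineage, and both passed the filter on low counts in every comparison. The RNA data are 18 polyA RNA-seq libraries of cells isolated by FACS from mice on a C57Bl/6 background.

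The KO groups (SIRT1mKO) came from mice that carry Cre as a knock-in in 1 copy of Pax7, bred to a floxed exon 4 of Sirt1, so that one of the genes described here also drives the deletion. The WT groups carry the name WT, and the labels do not say whether WT mice held the Cre allele. What the knock-in does to the Pax7 transcript of its own copy is not stated in the sources used here. FI cells were quiescent and freshly isolated. Cul cells were proliferating in Ham's medium with 20% fetal serum and the growth factor bFGF (12.5 ng/ml), and Diff cells had spent 24 hours in 2% horse serum. The groups held 3 KO_FI and 5 WT_FI libraries, 2 KO_Cul and 4 WT_Cul libraries, and 2 KO_Diff and 2 WT_Diff libraries. The ages of the mice are not given in the labels. Nor do the labels tie each library to its own mouse or dish, and a p-value here therefore speaks of the spread among these samples alone, which may be technical. The other 10 samples (ChIP and inputs) were not analysed here.

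Pax3 and Pax7 encode closely related transcription factors with a paired domain and a homeodomain. In the embryo Pax3 acts in the dermomyotome and in the progenitors that migrate into the limb, and it is also used by neural crest cells, the source of Schwann cells and melanocytes. Pax7 marks adult satellite cells and is needed for their upkeep. Both act upstream of the myogenic factors Myf5 and Myod1, and Pax7 is normally shut off as cells turn on Myog and differentiate.

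The sequence upstream of one annotated start of Pax7 is shown because the same locus carries the Cre of the KO mice. It covers 250 bases before the gene start on the minus strand at chr4:139832969-139833218 of RefSeq GRCm38.p6, with every CG dinucleotide in capitals.
Pax7: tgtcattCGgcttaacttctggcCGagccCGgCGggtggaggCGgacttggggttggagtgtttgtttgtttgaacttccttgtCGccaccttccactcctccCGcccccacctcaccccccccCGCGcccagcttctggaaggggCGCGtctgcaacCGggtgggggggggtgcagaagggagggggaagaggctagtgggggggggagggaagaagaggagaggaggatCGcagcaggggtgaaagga
This stretch holds 13 CG dinucleotides, against a median of 6 over 32851 mouse promoters of the same length, and its GC content was 65.2%, against a median of 52.4%. The E-box CANNTG, the site type bound by Myod1, and TGGGAA, the core letters bound by the Notch effector Rbpj, were searched on both strands. Neither was found in this window, and they were present in 66.2% and 21.6% of all the promoters.

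Levels are given as CPM, counts scaled to library size with TMM factors, and comparisons between Pax3 and Pax7 as FPKM, which also divides by transcript length. The libraries lay in 4 separately processed tables, named here FI, Cul and Diff (KO against WT in each state) and WT states (2 WT_Cul against 2 WT_FI libraries), and a library is named by its group and its index within its table. Libraries of the FI table held 28010691 to 65324684 fragments, those of Cul 75674366 to 82590642, those of Diff 71858446 to 82825550 and those of WT states 24254119 to 31643216. Sirt1, the targeted gene, was detected in every library, at 34.0 to 56.9 CPM in KO_FI and 42.6 to 86.8 CPM in WT_FI over all 18 libraries. Fragments are summed over the whole gene, so these levels do not check the loss of exon 4.

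Before any comparison, the 2 WT_FI libraries of the WT states table stood apart from the 3 WT_FI libraries of the FI table. Over all 18 libraries Pax7 had 130 and 111 CPM in the WT_FI libraries of WT states, against 957, 743 and 774 CPM in those of the FI table. Pax3 had 3.03 and 2.52 CPM in the WT_FI libraries of WT states, against 11.2, 11.2 and 11.005 CPM in those of the FI table. Both genes were thus lower in every library of one table than in every library of the other, although the label is the same. The share of all genes without overlap between these libraries was not counted.

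In a comparison added after seeing the data, Pax7 was 6.84-fold lower in the WT_FI libraries of WT states (log2 fold change -2.77 ± 0.49 SE, edgeR adjusted p = 0.00941) and Pax3 4.01-fold lower (log2 fold change -2.01 ± 0.40 SE, edgeR adjusted p = 0.0136). Over all genes 7.82% passed and 3.79% passed as lower. With 1 library fewer these calls were not all kept. Pax7 had adjusted p = 0.0672 without WT_FI index 0 and 0.145 without index 1 of WT states (edgeR). Pax3 had adjusted p = 0.0509 without WT_FI index 1 of the FI table, and 0.0784 and 0.182 without index 0 and index 1 of WT states (edgeR).

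Markers of some cell types moved with this difference. Fibroblast markers summed to 19068 to 27170 CPM in the WT_FI libraries of WT states, against 4408 to 6062 CPM in those of the FI table, with Col1a1 and Col1a2 passing as higher among 9 tested (7.82% of all genes passed). Schwann cell and melanocyte markers summed to 1926 to 1931 CPM, against 718 to 751 CPM, and Mbp, a myelin gene, passed as higher. Satellite cell markers other than Pax7 summed to 1940 to 2191 CPM, against 3908 to 5505 CPM, and Cdh15, Cxcr4, Myf5 and Pax7 passed as lower among the 9 of that list tested, where 3.79% of all genes did (Cxcr4 kept the call in 0 and Cdh15 in 2 of the 5 fits that left out 1 library). Endothelial and macrophage markers had no gene that passed (0 of 7 tested in both lists). Of the macrophage markers 6 had a log2 fold change below 0 and 1 above 0 (median -1.45, against -0.05 over all genes). Of the endothelial markers 4 lay below 0 and 3 above 0 (median -0.17). The satellite cell markers were present in every group, and none of the fibroblast, endothelial, macrophage or Schwann cell lists was at 0 throughout in WT_FI of either table. The part of these cells in the levels of Pax3 and Pax7 was not tested, and in bulk samples fewer cells of a type and less RNA per cell cannot be told apart.

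Lbx1, a homeobox gene of limb muscle progenitors described downstream of Pax3, set the whole WT states table apart. Its level was 0.99 to 3.87 CPM in the 4 libraries of WT states and 17.1 to 35.3 CPM in the other 14. It was lower in WT_FI of WT states than in WT_FI of the FI table (log2 fold change -4.02 ± 0.36 SE, edgeR adjusted p = 0.000308) and lower in WT_Cul of WT states than in WT_Cul of the Cul table (-2.77 ± 0.35 SE, edgeR adjusted p = 0.000663). Each of the 5 and 4 fits that left out 1 library kept the call.

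**Figure D1:**
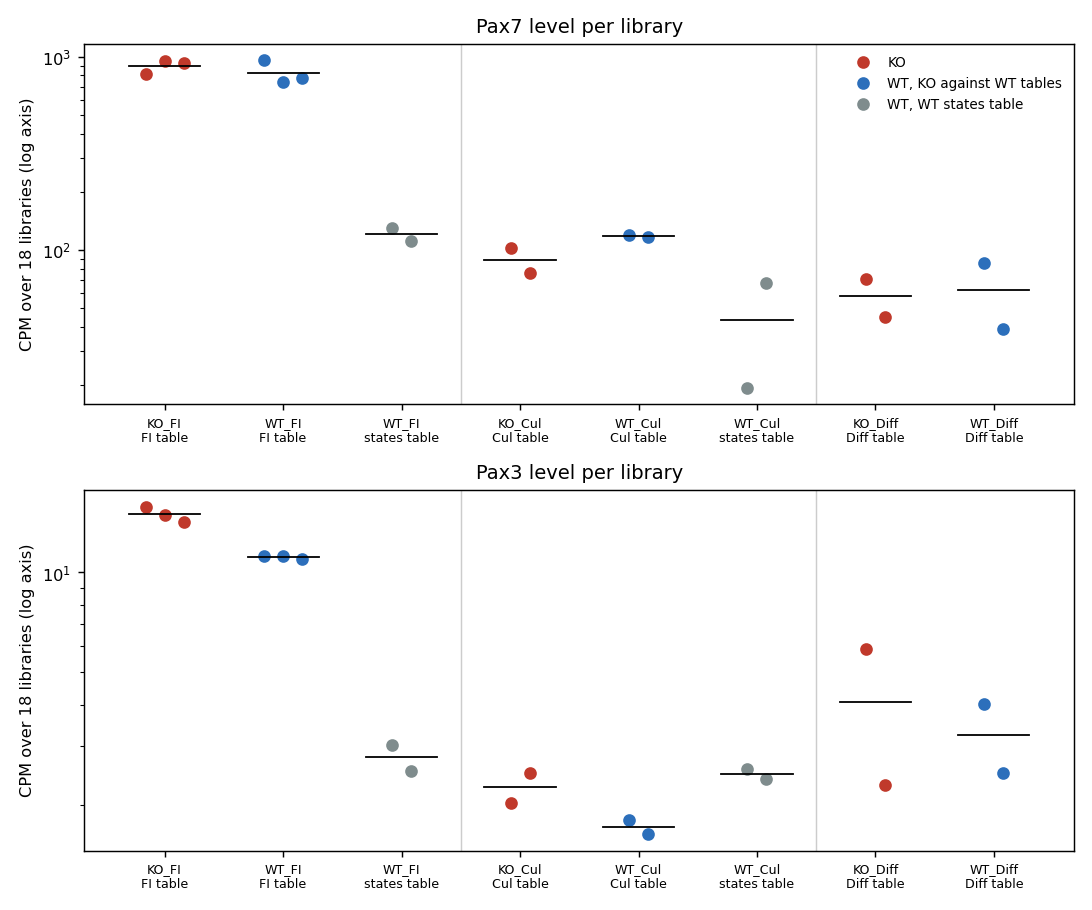
Pax7 (top) and Pax3 (bottom) in each library, in CPM over all 18 libraries on a log axis, with bars at the group means of a table. Pax7 lies between 743 and 957 CPM in the FI table and at or below 130 CPM in every other library, and Pax3 lies between 11.005 and 15.8 CPM in the FI table and at or below 5.87 CPM elsewhere.

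The first question was whether loss of Sirt1 goes with a change of either gene in quiescent cells. In the FI table Pax7 had 905, 1056 and 1022 CPM in KO_FI libraries, against 1059, 832 and 863 CPM in WT_FI libraries. The groups overlapped, and the means were 994 ± 79.1 CPM in KO_FI and 918 ± 123 CPM in WT_FI (SD, n = 3 each). Its log2 fold change was 0.12 (95% interval -0.26 to 0.49, edgeR adjusted p = 1.00).

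Pax3 had 17.6, 16.5 and 15.8 CPM in KO_FI libraries, against 12.4, 12.6 and 12.3 CPM in WT_FI libraries, which rest on 552 to 1209 and 339 to 706 fragments. All 3 KO_FI libraries lay above all 3 WT_FI libraries, which was also true of 5.57% of the 15146 genes tested, while 3.65% were lower in all KO_FI libraries. The means were 16.6 ± 0.924 CPM in KO_FI and 12.4 ± 0.147 CPM in WT_FI (SD, n = 3 each). The log2 fold change was 0.42 ± 0.12 (SE; 95% interval 0.13 to 0.71), a 1.34-fold difference that did not pass the threshold over all genes (edgeR adjusted p = 0.887). With the library index as a block, which treats same-index libraries as pairs, it was 0.42 (95% interval 0.12 to 0.72, edgeR adjusted p = 0.505). No fit that left out 1 library brought it past the threshold.

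No gene passed in this comparison by edgeR's quasi-likelihood test (0 of 15146, 0.0%), with 621 at an unadjusted p under 0.05, while DESeq2 called 116 genes and limma on FPKM called 1, neither of them Pax3 (DESeq2 adjusted p = 0.139) or Pax7. The spread of Pax3 within groups was small, with a pooled SD of 0.0576 on the log2 CPM scale, and 1.57% of genes had a smaller one. For Pax7 it was 0.156, against a median of 0.258 over all genes. Summed fibroblast markers were 4235 to 6170 CPM in KO_FI and 4408 to 6062 CPM in WT_FI of the FI table, and Schwann cell and melanocyte markers 674 to 979 CPM in KO_FI and 718 to 751 CPM in WT_FI. Both ranges overlapped between KO_FI and WT_FI, and 0 of 9 genes tested passed in each list.

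In proliferating cells Pax7 had 84.5 and 66.7 CPM in KO_Cul libraries, against 102 and 103 CPM in WT_Cul libraries of the Cul table. Both KO_Cul libraries were lower than both WT_Cul libraries, as were 11.1% of the 13963 genes tested. The log2 fold change was -0.44 (95% interval -0.99 to 0.10, edgeR adjusted p = 1.00). Pax3 had 1.66 and 2.19 CPM in KO_Cul libraries, against 1.54 and 1.44 CPM in WT_Cul libraries, from 118 to 183 fragments. Here the KO_Cul libraries were the higher ones, as for 11.8% of genes, with a log2 fold change of 0.37 (95% interval -0.73 to 1.47, edgeR adjusted p = 1.00). Without KO_Cul index 1 the values were -0.28 for Pax7 and 0.15 for Pax3, and without KO_Cul index 0 they were -0.64 for Pax7 and 0.54 for Pax3. No gene passed by edgeR (0 of 13963, 0.0%), with 112 at an unadjusted p under 0.05. DESeq2 called 3 genes, limma on FPKM 5, and the edgeR fit with the library index as a block 3.

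After 24 hours in differentiation medium Pax7 had 63.0 and 41.2 CPM in KO_Diff libraries, against 76.4 and 37.3 CPM in WT_Diff libraries. Pax3 had 5.24 and 2.09 CPM in KO_Diff libraries, against 3.57 and 2.36 CPM in WT_Diff libraries. For both genes the groups overlapped, where 6.39% of genes were higher and 6.85% lower without overlap in KO_Diff, and the library with index 0 was the higher one in KO_Diff and in WT_Diff. The log2 fold change was -0.13 for Pax7 (95% interval -1.44 to 1.19, edgeR adjusted p = 1.00) and 0.30 for Pax3 (95% interval -1.49 to 2.10, edgeR adjusted p = 1.00). Leaving out 1 library turned the sign of both: Pax7 had 0.17 without KO_Diff index 1 and 0.49 without WT_Diff index 0, and Pax3 had -0.51 without KO_Diff index 0. By edgeR 0 of 14482 genes (0.0%) passed, with 27 at an unadjusted p under 0.05, and DESeq2 and limma on FPKM called 0 as well. With the library index as a block 147 genes passed, 131 as higher and 16 as lower in KO_Diff, and neither Pax3 nor Pax7 was among them.

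The index-0 and index-1 libraries of the Diff table differed widely in the genes of differentiation. Myog, the myogenic factor that marks commitment to fusion, had 167 and 3969 CPM in KO_Diff index 0 and index 1, and 68.6 and 2125 CPM in WT_Diff index 0 and index 1, over all 18 libraries. In both genotypes the library with more Myog was the one with less Pax7 and less Pax3. The 11 measured muscle differentiation genes summed to 615 and 36658 CPM in KO_Diff and to 361 and 15754 CPM in WT_Diff. Xist, a noncoding RNA that female cells make from their silenced X chromosome, also split the libraries by index and is named after its values were seen: it had 880 and 0.158 CPM in KO_Diff index 0 and index 1, and 1383 and 0.340 CPM in WT_Diff index 0 and index 1. Whether these differences and those of Pax3 and Pax7 are linked was not tested.

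Pooled over the 3 states in a fit added after seeing the data (14 libraries, state as a term), Pax3 had a log2 fold change of 0.39 in KO over WT (95% interval -0.04 to 0.82, edgeR adjusted p = 1.00) and Pax7 of -0.10 (95% interval -0.50 to 0.31, edgeR adjusted p = 1.00). Between libraries of the same table and index, Pax3 was higher in KO in 6 of 7 pairs and Pax7 in 3 of 7. How many of all genes were higher in KO in as many pairs was not counted, so these counts set neither gene apart. The labels do not say what libraries of the same index share. At index 0 of the Cul table KO_Cul and WT_Cul held 120 Pax3 fragments each. In this fit 1 of 16698 genes passed (0.00599%). The effect of genotype was not shown to differ between states. The KO over WT value in Cul minus that in FI was -0.52 for Pax7 (95% interval -1.56 to 0.52) and -0.03 for Pax3 (-1.21 to 1.15), and in Diff minus FI it was -0.23 for Pax7 (-1.27 to 0.81) and -0.10 for Pax3 (-1.26 to 1.06), with edgeR adjusted p = 1.00 for each. By edgeR and by DESeq2 0 of 16698 genes (0.0%) and 0 of 17891 passed in either of these contrasts, and by edgeR 196 and 211 had an unadjusted p under 0.05.

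**Figure D2:**
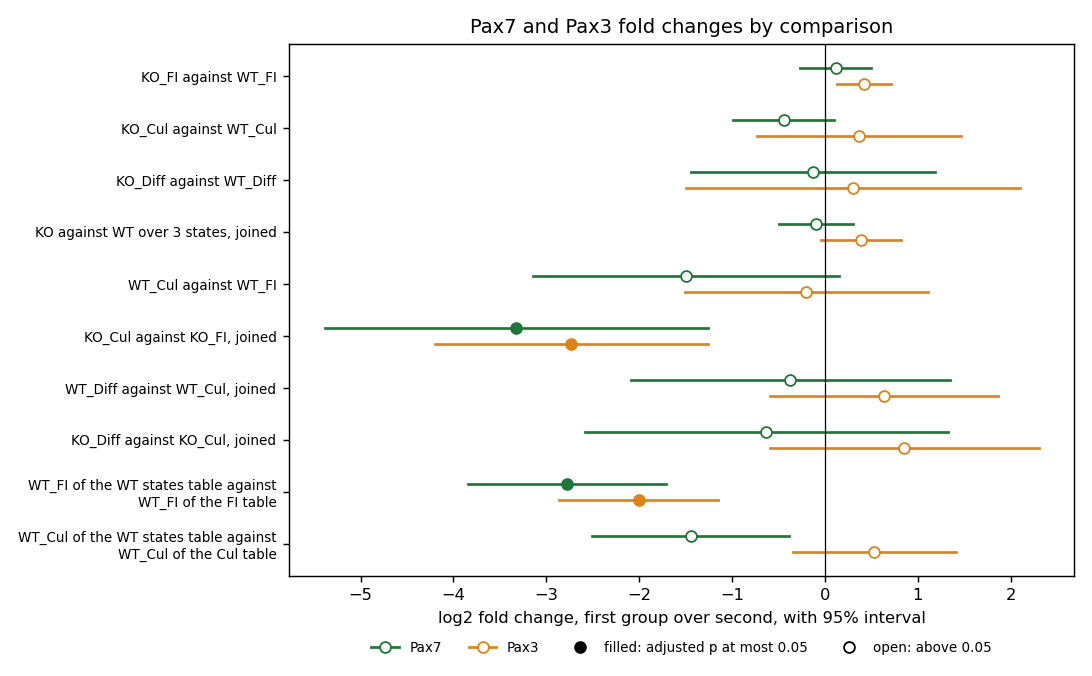
Log2 fold changes of Pax7 and Pax3, first-named group over second, with 95% intervals, in 10 comparisons. The intervals for KO over WT include 0 except for Pax3 in FI (0.13 to 0.71), and filled points mark the comparisons that passed over all genes, KO_Cul against KO_FI and WT_FI between tables.

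The next question was how the genes differ between proliferating and quiescent cells. In the table of WT states, Pax7 had 19.7 and 70.6 CPM in WT_Cul libraries, against 138 and 117 CPM in WT_FI libraries. Both WT_Cul libraries were lower, as for 35.4% of the 14680 genes tested (35.5% were higher without overlap), and they lay far apart from each other. The log2 fold change was -1.49 (95% interval -3.15 to 0.16) and did not pass (edgeR adjusted p = 0.140), where 28.6% of genes passed. Without WT_Cul index 1 it was -2.70 and passed (edgeR adjusted p = 0.00118). The pooled SD of Pax7 within these groups was 0.927 on the log2 CPM scale, above that of 85.3% of genes. With the library index as a block Pax7 passed by a small margin, as given in the last section, and the labels do not say what an index shares.

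The WT_Cul library with 19.7 CPM of Pax7 (index 0) was also the one with Myog switched on. It held 796 CPM of Myog over all 18 libraries, against 8.66 CPM in WT_Cul index 1, and its muscle differentiation genes summed to 3719 CPM, against 154 CPM. The link between these values was not tested.

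Pax3 had 2.60 and 2.4998 CPM in the WT_Cul libraries of WT states, against 3.23 and 2.63 CPM in WT_FI libraries, from 65 to 81 fragments. The log2 fold change was -0.20 (95% interval -1.51 to 1.11, edgeR adjusted p = 0.793). The interval includes 0, and the test does not show that the level was alike in both groups.

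Both values were larger in size in fits across tables. With all 18 libraries in 1 fit, which adds the WT_Cul libraries of the Cul table and the WT_FI libraries of the FI table, WT_Cul against WT_FI had a log2 fold change of -2.75 for Pax7 (edgeR adjusted p = 0.00317) and -1.90 for Pax3 (edgeR adjusted p = 0.00381). With the WT_FI libraries of WT states left out, an alternative added after seeing the data, it was -3.35 for Pax7 (95% interval -4.43 to -2.27, edgeR adjusted p = 0.000216) and -2.41 for Pax3 (-3.16 to -1.67, edgeR adjusted p = 0.000152). The libraries left out were those already seen to be low in both genes, so a value larger in size follows from the choice. All WT_FI libraries that remained lay in the FI table and no WT_Cul library did, so state and table cannot be told apart there. In these 2 fits 9331 of 16737 and 8329 of 16672 genes passed.

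In KO cells the 2 states lie in different tables, so state and table cannot be told apart. Over all 18 libraries Pax7 had 103 and 75.9 CPM in KO_Cul libraries, against 813, 953 and 922 CPM in KO_FI libraries. Pax3 had 2.02 and 2.49 CPM in KO_Cul libraries, against 15.8, 14.9 and 14.2 CPM in KO_FI libraries. Neither gene's groups overlapped, but the share of all genes without overlap was not counted for this comparison. Pax7 was 10.01-fold lower in KO_Cul (log2 fold change -3.32 ± 0.97 SE, edgeR adjusted p = 0.0120) and Pax3 6.63-fold lower (-2.73 ± 0.69 SE, edgeR adjusted p = 0.00549), where 46.7% of 16737 genes passed and 24.8% passed as lower. With the table as a term, which sets the state difference by the WT states table, the values were -1.99 for Pax7 (edgeR adjusted p = 0.109) and -0.19 for Pax3 (edgeR adjusted p = 0.914). Without KO_Cul index 0 neither passed (Pax7 adjusted p = 0.0724, Pax3 0.0610, edgeR), and without KO_Cul index 1 Pax7 did not (edgeR adjusted p = 0.0859).

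From Cul to Diff no change of either gene passed. WT_Diff over WT_Cul had a log2 fold change of -0.37 for Pax7 (95% interval -2.09 to 1.34, edgeR adjusted p = 0.834) and 0.64 for Pax3 (-0.59 to 1.86, edgeR adjusted p = 0.567), where 1.08% of genes passed and 0.191% passed as lower. KO_Diff over KO_Cul had -0.63 for Pax7 (-2.59 to 1.33, edgeR adjusted p = 0.831) and 0.85 for Pax3 (-0.59 to 2.30, edgeR adjusted p = 0.610), where 0.179% of genes passed and 0.0358% passed as lower. Leaving out 1 library moved KO_Diff over KO_Cul between -0.99 and -0.34 for Pax7 and, for Pax3, to 0.020 without KO_Diff index 0 and 1.38 without KO_Diff index 1. Pax7 in WT_Diff over WT_Cul turned to 0.09 without WT_Diff index 1.

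Ordered by level over all 18 libraries, Pax7 was highest in KO_FI (813 to 953 CPM) and in WT_FI of the FI table (743 to 957), which overlapped. Then came WT_FI of WT states (111 to 130 CPM) and WT_Cul of the Cul table (117 to 119), which also overlapped, and, lower than both, KO_Cul (75.9 to 103). WT_Diff (39.3 to 85.6 CPM), KO_Diff (45.2 to 70.6) and WT_Cul of WT states (19.4 to 67.5) overlapped at the low end. Pax3 was highest in KO_FI (14.2 to 15.8 CPM) and next in WT_FI of the FI table (11.005 to 11.2), which did not overlap. KO_Diff (2.29 to 5.87 CPM), WT_Diff (2.49 to 4.01), WT_FI of WT states (2.52 to 3.03), WT_Cul of WT states (2.39 to 2.56) and KO_Cul (2.02 to 2.49) followed, each overlapping the next, with WT_Cul of the Cul table lowest (1.63 to 1.80).

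Pax7 was the more abundant gene in every library. In FPKM, which the authors scaled within each table, Pax7 had 202 to 236 in KO_FI and 185 to 240 in WT_FI of the FI table, among the 461 highest genes of a library, while Pax3 had 4.07 to 4.60 in KO_FI and 3.05 to 3.34 in WT_FI. The ratio of Pax7 to Pax3 FPKM within a library does not depend on that scaling. It was 43.9 to 56.1 in KO_FI and 38.4 to 75.4 in the 5 WT_FI libraries, 26.0 to 42.6 in KO_Cul and 6.50 to 60.8 in the 4 WT_Cul libraries, and 10.4 to 16.02 in KO_Diff and 12.8 to 18.4 in WT_Diff. The ratio was lower in all 4 Diff libraries than in all 8 FI libraries. This difference was not tested, and Diff and FI libraries lie in different tables, so state and table cannot be told apart. WT_Cul index 0 of WT states, at 6.50, lay below every Diff library.

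Between WT_Cul and WT_FI the log2 ratio of Pax3 to Pax7 averaged -4.73 ± 1.49 in WT_Cul (SD, n = 4) and -5.71 ± 0.43 in WT_FI (SD, n = 5). The difference of 0.98 was smaller than the spread in WT_Cul (exact two-sided permutation test, p = 0.206). It was 1.66 within the WT states table (exact permutation p = 0.333, the smallest this design allows) and 0.17 without that table (exact permutation p = 0.4). Leaving out WT_Cul index 0 of WT states brought it to 0.31.

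**Figure D3:**
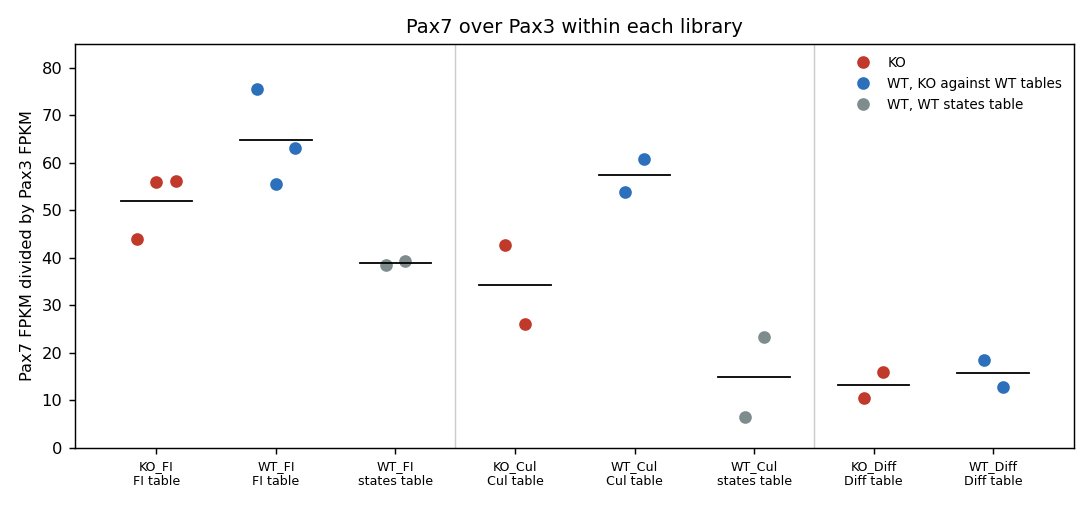
Pax7 FPKM divided by Pax3 FPKM in each library, with bars at the group means of a table. The ratio lies between 38.4 and 75.4 in FI libraries and between 10.4 and 18.4 in Diff libraries, and spans 6.50 to 60.8 in WT_Cul.

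The other Pax genes were low. Pax5, known as a B cell factor, was detected in 10 of 18 libraries and reached 2.09 FPKM in WT_FI index 0 of the FI table, below Pax3 there (3.18 FPKM). In WT_FI index 0 of WT states Pax5 was above Pax3, at 1.94 FPKM, against 0.813 FPKM for Pax3. Pax9 reached 0.363 FPKM, Pax1 0.257, Pax6 0.0990, Pax4 0.0555, Pax8 0.0348 and Pax2 0.0191. Between WT_Cul and WT_FI in the WT states table Pax1 alone of 4 Pax genes tested passed, as lower (2355 of 14680 genes did). Its libraries held 1 and 2 fragments in WT_Cul, against 17 and 15 in WT_FI. Between KO_Cul and KO_FI Pax1, Pax3, Pax5 and Pax7 passed as lower among 6 (24.8% of genes did). Pax1 and Pax5 had 0 fragments in both KO_Cul libraries, against 7, 2 and 5 (Pax1) and 142, 4 and 23 (Pax5) in KO_FI libraries. The lowest FPKM of Pax3 in any library was 0.408 and that of Pax7 4.41.

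Genes described as targets of Pax3 or Pax7 in myogenic cells did not move as 1 group between KO and WT or between Cul and FI. Of 10 such genes, all tested, 0 passed in either direction between KO_FI and WT_FI (median log2 fold change -0.07, against -0.03 over all genes), KO_Cul and WT_Cul (-0.01, against 0.02) or KO_Diff and WT_Diff (0.18, against -0.01). Of all genes tested, 0.0% passed in each of these comparisons, so the count of 0 does not set the targets apart. Myod1, the myogenic factor of activated cells, had 75.9, 85.1 and 59.6 CPM in KO_FI libraries, against 126, 225 and 121 CPM in WT_FI libraries of the FI table, over all 18 libraries. The KO_FI libraries were all lower, as for 3.65% of genes, and the difference did not pass (log2 fold change -1.10 ± 0.29 SE, edgeR adjusted p = 0.822).

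Of the 10 targets, 2 passed as higher and 2 as lower between WT_Cul and WT_FI of WT states, where 28.6% of all genes passed (median 0.87, against 0.06 over all genes). Myod1 was higher in WT_Cul (log2 fold change 5.71 ± 1.01 SE, edgeR adjusted p = 0.0190), and so was Met (4.30 ± 0.57 SE, edgeR adjusted p = 0.0134), the receptor for HGF that limb progenitors need to migrate. Spry1, an inhibitor of growth factor signalling kept on in quiescent cells, was lower (-2.33 ± 0.53 SE, edgeR adjusted p = 0.0319), as was Itm2a (-2.15 ± 0.52 SE, edgeR adjusted p = 0.0370). Between KO_Cul and KO_FI 3 of 10 passed as higher and 4 as lower, where 46.7% of all genes passed and 24.8% passed as lower (median -1.01, against -0.19 over all genes).

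Myod1 and Met were again higher in KO_Cul, and Id2, an inhibitor of bHLH factors, as well (2.89 ± 0.53 SE, edgeR adjusted p = 0.000704). Fgfr4, an FGF receptor of satellite cells, had 32.2 and 17.7 CPM in KO_Cul libraries, against 1136, 1417 and 1225 CPM in KO_FI libraries, and Spry1 and Itm2a were lower too. With the table as a term Myod1 and Met kept their calls, while Id2 (2.10), Spry1 (-2.13) and Itm2a (-2.26) did not pass and Fgfr4 was -0.81 (edgeR adjusted p = 0.722). Myf5, the fourth of them, had 93.9 and 76.9 CPM in KO_Cul libraries, against 252, 259 and 268 CPM in KO_FI libraries. Its call was the weakest (-1.60 ± 0.63 SE, edgeR adjusted p = 0.0478): with the table as a term it was 0.83, and 3 of 9 alternatives kept the call. Dmrt2, Lbx1 and Id3 did not pass in either comparison. Dmrt2, a factor of the dermomyotome, had 9.46 and 7.57 CPM in KO_Cul libraries, against 34.0, 24.4 and 22.9 CPM in KO_FI libraries (edgeR adjusted p = 0.0743), and Id3, a relative of Id2, had 404 and 204 CPM in KO_Cul libraries, against 632, 304 and 282 CPM in KO_FI libraries (edgeR adjusted p = 0.575).

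In WT_FI of WT states, 6 of these 10 targets passed as lower than in WT_FI of the FI table (Dmrt2, Fgfr4, Lbx1, Myf5, Myod1 and Spry1), and 0 as higher, where 3.79% of all genes passed as lower. The log2 fold change was below 0 for 9 of the 10 and above 0 for 1 (median -2.06, against -0.05 over all genes). For Fgfr4 the call held in none of the 5 fits that left out 1 library, and for Spry1 in 1. Id2, Id3, Itm2a and Met did not pass. The marker sums given above moved with these calls, and their part in them was not tested.

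**Figure D4:**
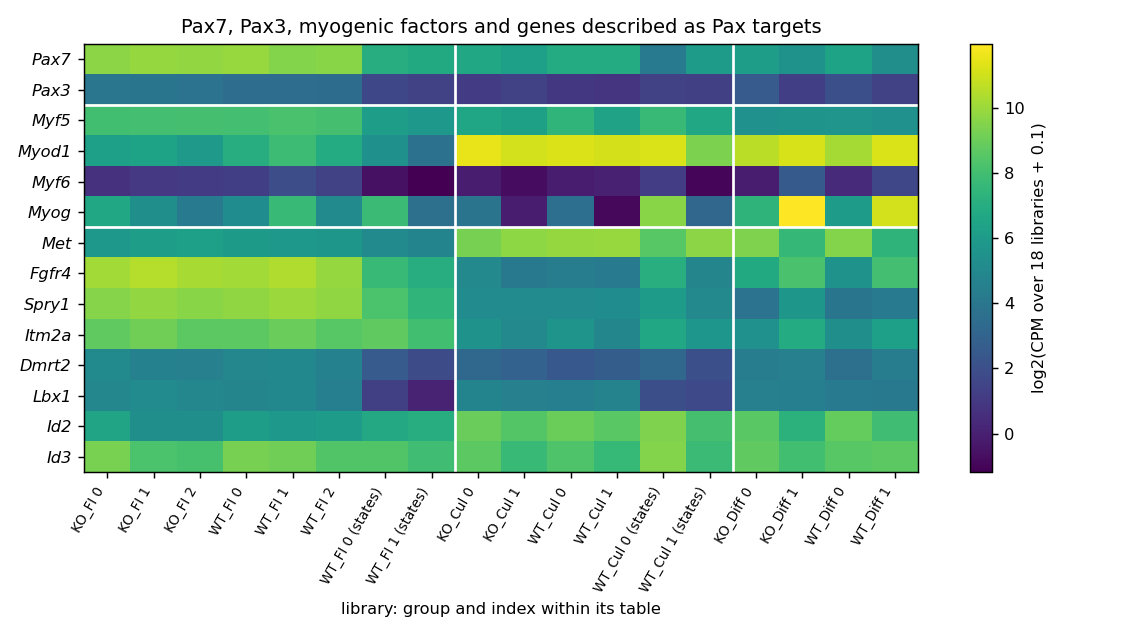
Log2 of CPM over all 18 libraries plus 0.1 for Pax7 and Pax3 (top rows), the 4 myogenic factors and the remaining genes described as Pax targets, with 1 column per library, ordered FI, Cul and Diff. Pax7, Pax3, Fgfr4 and Spry1 are brightest in the FI libraries of the KO against WT comparison, and Myod1 and Met in Cul and Diff libraries.

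Of the 4 myogenic factors, Myod1 was the only one to pass as higher between WT_Cul and WT_FI in the WT states table and between KO_Cul and KO_FI, where Myf5 passed as lower. Over all genes 28.6% passed between WT_Cul and WT_FI and 46.7% between KO_Cul and KO_FI, so these counts do not set the myogenic factors apart. Myf6 stayed at or below 5.67 CPM in all 18 libraries. Between KO and WT 0 of 4 passed in FI, Cul and Diff, where 0.0% of all genes passed.

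Regulators described upstream of Pax3 or Pax7 include the Eya factors of the dermomyotome, Meox genes of the somite and the Notch pathway, which keeps satellite cells quiescent. None of them passed between KO and WT (0 of 11 tested in FI, 0 of 10 in Cul, 0 of 9 in Diff), where 0.0% of all genes passed. Between WT_Cul and WT_FI in the WT states table, Eya2, Meox2 and Notch3 passed as lower among 11 (28.6% of all genes passed), and between KO_Cul and KO_FI, Tead2 passed as higher and Eya2, Meox2, Notch1 and Notch3 as lower among 10 (46.7% of all genes passed). With the table as a term Tead2, Meox2 and Notch1 did not pass, and Eya2 and Notch3 did. These are named after their values were seen, as is Calcr among the satellite cell markers and Sox10 among the Schwann cell markers. Notch3, a Notch receptor, had 35.7 and 63.5 CPM in WT_Cul libraries, against 1514 and 2017 CPM in WT_FI libraries of WT states (log2 fold change -5.18 ± 0.56 SE, edgeR adjusted p = 0.0103). In KO_Cul libraries it had 17.9 and 7.04 CPM, against 2786, 3029 and 2996 CPM in KO_FI libraries.

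Calcr, the calcitonin receptor that marks quiescent satellite cells, had 3.63 and 3.72 CPM in WT_Cul libraries, against 87.2 and 78.1 CPM in WT_FI libraries of WT states (log2 fold change -4.52 ± 0.38 SE, edgeR adjusted p = 0.00962). It was the only satellite cell marker of 9 to pass there. Between KO_Cul and KO_FI 5 of these 9 markers, Pax7 and Myf5 among them, passed as lower and 0 as higher, where 24.8% of all genes passed as lower. Calcr, Vcam1 and Cdh15 were the others. With the table as a term Cdh15 turned to 0.14 and Vcam1 was -0.58 (edgeR adjusted p = 0.798). Of 16 measured cofactors and modifiers of Pax3 or Pax7, such as the histone methyltransferase subunits Ash2l and Wdr5, 0 passed between KO and WT in any state (0.0% of all genes did). Of these 16, 3 passed as higher between WT_Cul and WT_FI, where 28.6% of all genes passed. Between KO_Cul and KO_FI 7 passed as higher and 1 as lower, where 46.7% of all genes passed. Of 18 Hox, Pitx and Tbx genes that mark position along the body and limb, 0 passed between KO and WT (13 to 16 tested), 1 of 16 passed as lower between WT_Cul and WT_FI, and 1 as higher and 4 as lower of 18 between KO_Cul and KO_FI, against the same shares of all genes. In WT_FI, 1 of the 18 passed as higher and 4 as lower in WT states against the FI table, where 7.82% of all genes passed.

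Markers of other cells were much lower in culture. Fibroblast markers summed to 977 to 1631 CPM in WT_Cul of WT states, against 19068 to 27170 CPM in WT_FI of that table, and 7 of 9 passed as lower. Schwann cell and melanocyte markers summed to 248 to 549 CPM in these WT_Cul libraries, against 1926 to 1931 CPM in WT_FI, with 3 of 8 lower. Of the endothelial markers 5 of 7 and of the macrophage markers 1 of 7 passed as lower there, where 2355 of 14680 genes did. In the Cul table the same sums were 138 to 302 and 15.3 to 22.3 CPM in KO_Cul and 87.2 to 228 and 12.0 to 15.6 CPM in WT_Cul. Sox10, a defining gene of Schwann cells, was at 89.8 and 136 CPM in WT_Cul of WT states and at 1.87 and 3.89 CPM in WT_Cul of the Cul table, while Pax3 was at 2.56 and 2.39 CPM in WT_Cul of WT states and at 1.80 and 1.63 CPM in WT_Cul of the Cul table. Between KO_Cul and KO_FI 7 of 9 fibroblast, 8 of 9 Schwann cell and melanocyte, 7 of 7 endothelial and 6 of 7 macrophage markers passed as lower, where 24.8% of all genes did. Their part in the levels of Pax3 was not tested. Pax7 and Pax3 in WT_Cul did not pass between the 2 tables (log2 fold change -1.44, edgeR adjusted p = 0.0891, and 0.53, edgeR adjusted p = 0.485, where 8.23% of genes passed and 2.23% passed as lower), and without WT_Cul index 1 of WT states Pax7 passed (-2.61, edgeR adjusted p = 0.0101).

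**Figure D5:**
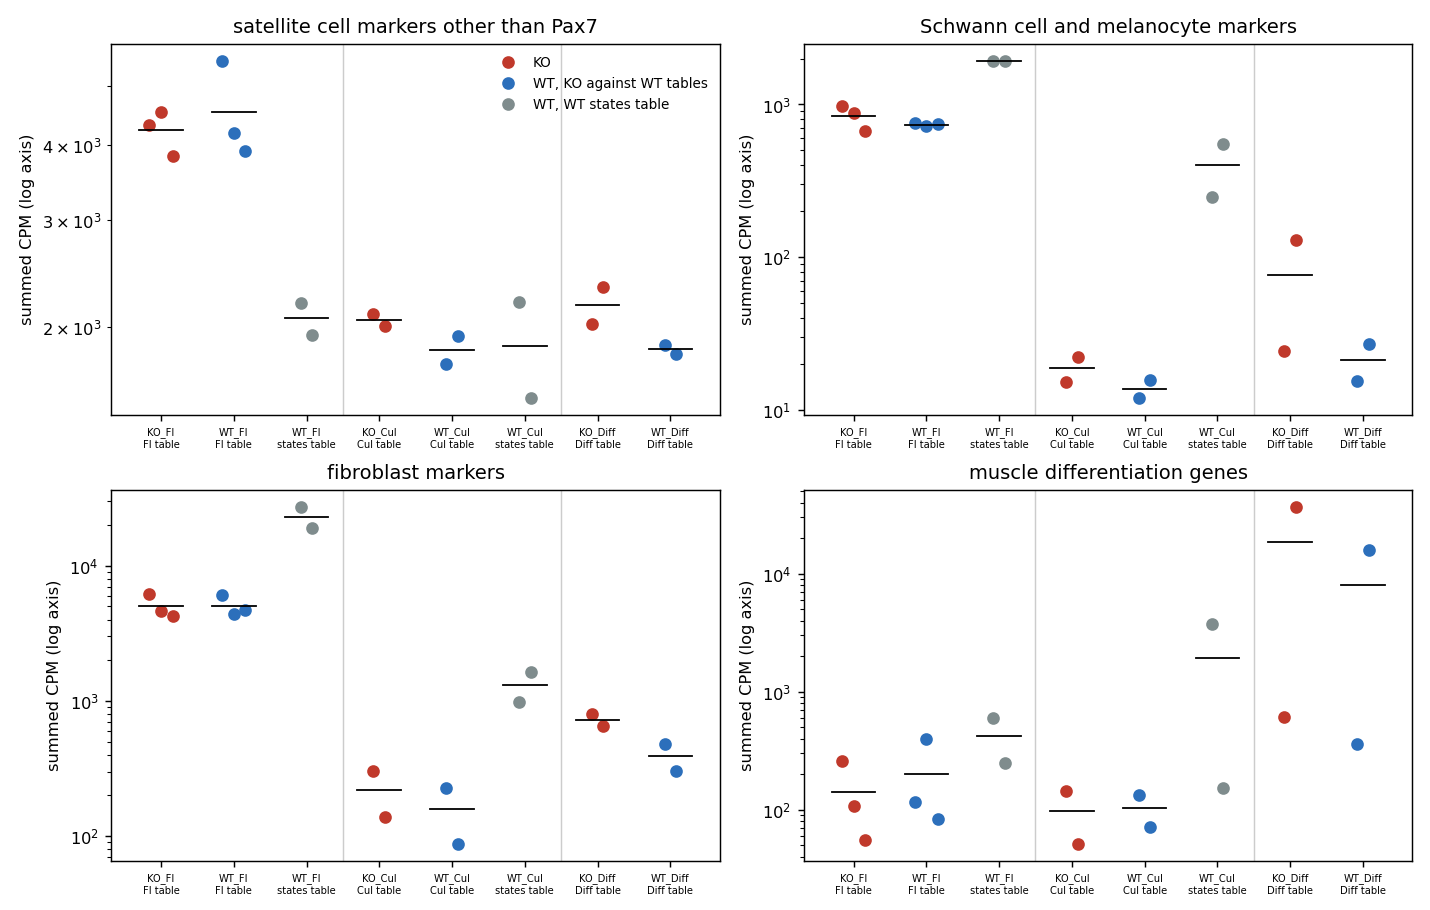
Summed CPM over all 18 libraries, on log axes, of 4 gene lists in each library, with bars at the group means of a table. The WT_FI libraries of WT states lie highest for fibroblast markers (19068 to 27170 CPM) and for Schwann cell and melanocyte markers (1926 to 1931 CPM), and KO_Diff index 1 for muscle differentiation genes (36658 CPM).

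The genes whose levels ran most like Pax7 over the 18 libraries, by Pearson r of log2 CPM among 10672 genes, were Efcab5 (r = 0.97), Lhfpl4, Ebf3, Arhgef40, Gpsm1 and Stat5b (r = 0.96). Those most like Pax3 were Tshz3, Hoxc4 and Pde4d (r = 0.95), and Hunk, Klhl36 and Jup (r = 0.94). Pax3 and Pax7 had r = 0.86 with each other, which put Pax3 at rank 233 among the genes most like Pax7. These values share the libraries and the large gap between the FI table and the rest, and are descriptions only. For deviations from the group means, which leave the gap between states aside but not that between tables, the genes most like Pax7 were Rai1 (r = 0.97), Dph1, Nt5dc3 and Man2a2, and those most like Pax3 were Zfp36l1 (r = 0.95), Cdh4, Slc43a1 and Pde4d. Pax3 and Pax7 had r = 0.66 with each other by that measure.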

How the data were processed

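The authors deposited 4 tables of gene values, in which, per the file headers, the estimated counts are raw fragments, not normalized. The FPKM values in these deposited tables were scaled within a table. Bowtie, TopHat, SICER, Cuffdiff and build mm9 are named in the submitters' processing notes, without roles. Conditions were matched to groups by name, the letter left over in the tables being Cul. Genes not marked OK in every library were left out (12 to 27 per table). Pairs of libraries within a group differed by a chi-square of at least 26.3 per degree of freedom, so none was a copy within sampling noise.

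Estimated counts were rounded and fitted with edgeR 4.0.16 (robust quasi-likelihood F test, TMM, filterByExpr). P-values were adjusted by Benjamini and Hochberg's method across every gene in a fit, and a gene passed at 0.05. Comparisons across tables joined raw fragments in 1 fit. Intervals are 95% and come from the fit. Alternatives were DESeq2 1.42.0 (at least 10 fragments per gene), RLE factors, no filter, limma 3.58.1 on log2(FPKM + 1) with a minimum of 1 FPKM, a replicate block and leaving out each library. The Pax3 to Pax7 ratio was tested by exact permutation. The edgeR fits within a table were also run on simulated counts with known changes, with results not reported here. Depth was 24254119 to 82825550 fragments per library.

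Same-index libraries of the FI table deviated together from their group means (correlations of 0.866, 0.683 and 0.584 over genes). The index-0 libraries there were the deepest (65324684 fragments in KO_FI and 55138738 in WT_FI). KO_FI index 0 differed from index 1 and index 2 by a chi-square of 450 and 408 per degree of freedom, against 26.3 between those. Xist at index 2 was 2631 CPM in KO_FI and 839 CPM in WT_FI. The correlations therefore do not show that each index pairs its libraries, and the labels do not tie index to animal. The genes and the 12 gene lists, among them the Pax family, myogenic factors, Pax targets, cofactors, upstream regulators, satellite cell, position and differentiation genes and markers of 4 other cell types, were chosen with earlier results of these data known. Pax family, myogenic factor and target genes are named with values or by call, and of the other lists a few, as a rule those with the highest mean CPM, and otherwise chosen after their values were seen. Whether counting used strand is not stated, and reads of Pax3 and Pax7 shared between near-identical stretches may have been divided between them. Pax3 is not among the RefSeq promoters used here. Results for some genes of the lists are not reported here.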

Additional observations from a re-analysis of the deposited data

How the results depend on the processing

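Across the alternatives Pax3 and Pax7 kept their place beyond or short of the threshold in all KO against WT comparisons within a state. With DESeq2 116 genes passed between KO_FI and WT_FI, 3 between KO_Cul and WT_Cul, 1531 between WT_Diff and WT_Cul and 1154 between KO_Diff and KO_Cul. With limma on FPKM 1 passed between KO_FI and WT_FI and 5 between KO_Cul and WT_Cul. With the replicate block 3 genes passed between KO_Cul and WT_Cul, 147 between KO_Diff and WT_Diff, 2 for the difference of the KO effect (Diff minus FI) and 27 for KO over WT in the 3 states, and Pax7 in WT_Cul over WT_FI was -1.76 (edgeR adjusted p = 0.0490). Cul, Diff and WT states have 2 pairs each, with correlations of deviations of 0.732, 0.787 and 0.387. In Cul, as in Diff, Xist was alike in same-index libraries (0.437 CPM in KO_Cul and 1.24 CPM in WT_Cul at index 0, 1387 CPM in KO_Cul and 2595 CPM in WT_Cul at index 1), and the labels do not say what an index shares. The block changed no other call of Pax3 or Pax7. With the table as a term KO_Cul over KO_FI was -1.99 for Pax7, -0.19 for Pax3, 0.14 for Cdh15 and 0.83 for Myf5, and 2372 genes passed. Without a filter 53 genes passed between KO_Diff and KO_Cul. With all 18 libraries WT_Cul over WT_FI was -2.75 for Pax7 and -1.90 for Pax3 (9331 genes passed), and against the 3 WT_FI libraries of the FI table alone, chosen after seeing the data, -3.35 and -2.41 (8329 genes). Against the 2 WT_Cul libraries of the Cul table alone, also added later, 281 genes passed for WT_Diff. The causes of these shifts were not tested.

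Leaving out each library in turn gave these ranges. KO_Diff over WT_Diff lay between -0.56 and 0.49 for Pax7 and between -0.51 and 0.84 for Pax3. WT_Cul over WT_FI lay between -2.70 and -0.89 for Pax7, with 2063 to 8050 genes called. KO_Cul over KO_FI lay between -3.56 and -3.12 for Pax7 and between -2.89 and -2.58 for Pax3, with 4052 to 6698 genes called. WT_Diff over WT_Cul lay between -1.05 and 0.086 for Pax7, with 17 to 1313 genes called, and KO_Diff over KO_Cul had 0 to 434 genes called. The difference of the KO effect lay between -0.19 and 0.12 for Pax3 in Cul minus FI, and in Diff minus FI between -0.69 and 0.40 for Pax7 and between -0.94 and 0.43 for Pax3. KO over WT in the 3 states lay between -0.19 and 0.035 for Pax7, with 0 to 2 genes called. WT_FI of WT states over WT_FI of the FI table lay between -2.89 and -2.65 for Pax7 and between -2.15 and -1.88 for Pax3, with 13 to 994 genes called. WT_Cul of WT states over WT_Cul of the Cul table lay between -2.61 and -0.81 for Pax7, with 342 to 1447 genes called. The Pax3 to Pax7 ratio lay between 0.31 and 1.38. Where an arm is left with 1 library, it is assumed to vary like the other group. Pax3 rests on 65 to 183 fragments in each Cul library and each WT states library.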
